A study of Mus musculus with 72 samples.

Results

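The genotype effect examined here is that of a heterozygous Thap1 mutation (Thap1+/-, called DYT6KO in the labels) on mature miRNAs of the cerebellum after nerve injury. It was read from the 12 small RNA libraries of crushed cerebellum, 6 from Thap1+/- mice and 6 from wild-type mice, out of 71 libraries in the tables and 72 samples in the labels. Libraries were assigned by the group in their column names, and all 1927 mature miRNA rows were scaled and tested anew. All mice were male. Both groups had the right sciatic nerve crushed for 1 min under isoflurane at 12 weeks of age, and the right cerebellum was taken 12 weeks later. The labels describe the replicates as biological, and each library was counted as 1 replicate. The study set out to look for pathways and markers of dystonia-like movement after peripheral nerve injury in Thap1+/- mice. Uninjured cerebellum (12 libraries, 6 per genotype), crushed cortex (12) and crushed striatum (12) of the same genotypes serve below only as comparisons. Thap1 mRNA was not measured in these libraries, and the targeted gene therefore gives no check of the genotype.

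THAP1 is a zinc-finger transcription factor, and mutations of one copy of its gene cause the dystonia DYT6, a disorder in which the cerebellum and basal ganglia are thought to take part. A miRNA is cut from a hairpin precursor, which can yield a strand from either arm (5p and 3p). The strand that is kept, the guide, pairs with target mRNAs mainly through its seed, bases 2 to 8, and represses them, while the passenger strand is mostly degraded. The right cerebellum was extracted as bulk tissue, so fewer cells of a type and less miRNA per cell cannot be told apart.

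The sequences that follow are those of the miRNAs that passed the test, then those of relatives that share a seed with one of them and of the let-7 guide strands, which make up most of the counts. They are mature RNA sequences from RefSeq (GRCm38.p6), written 5′ to 3′, with the seed in capitals. miR-485-5p, which also passed, is named only.
let-7a-1-3p: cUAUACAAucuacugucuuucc
miR-30c-5p: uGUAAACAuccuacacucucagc
miR-6540-3p: uCUGAAGCuugcuuaccucca
miR-770-3p: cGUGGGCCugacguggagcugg
miR-340-5p: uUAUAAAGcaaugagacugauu
miR-30a-5p: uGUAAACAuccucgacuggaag
miR-30e-5p: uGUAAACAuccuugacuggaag
miR-384-5p: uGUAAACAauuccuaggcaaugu
let-7a-5p: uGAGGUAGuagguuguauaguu
let-7b-5p: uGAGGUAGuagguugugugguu
miR-98-5p: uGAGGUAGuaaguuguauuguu
let-7a-1-3p and let-7c-2-3p have identical mature sequences and were counted as 1 feature. Among the tested miRNAs with a RefSeq sequence, miR-30c-5p shares its seed with miR-30a-5p, miR-30e-5p and miR-384-5p. For miR-30b-5p and miR-30d-5p no sequence was at hand to compare. The seeds of the other sequenced called miRNAs differ from that of miR-30c-5p and from each other.

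The 12 libraries held 9155908 to 12589140 miRNA counts each, and 586 to 676 miRNAs had at least 1 count. Values below are CPM (counts scaled to a common library size) on totals scaled by the trimmed mean of M values (TMM). Some libraries stood apart before any test. Thap1+/- libraries 46, 47 and 86, named by the number in their column, lay at 8.43, 14.1 and 12.4 on the first principal component of log2 CPM, which held 34.1% of the variance, and the other 9 lay between -9.42 and 0.38. These 3 had 0 counts of miR-337-3p, which allows up to 0.328 CPM in library 86 and less in 46 and 47. The other 21 cerebellum libraries had 738 to 1548 counts. miR-337-3p made up 25.4% of the squared weights of the first component. Its 0 counts and the positions of the 3 libraries there are therefore partly the same observation. The 3 libraries were not alike throughout. On the third component library 46 lay at 10.5, library 47 at -4.51 and library 86 at -3.55. Library 47 had a TMM factor of 0.725 and library 86 one of 0.769, the lowest of the 12. On the second component wild-type library 3 lay at 10.7 and wild-type library 139 at -11.3, and the other 10 between -4.10 and 2.26; epithelial miRNAs were high in library 3, as described below. The spread between replicates, as the median SD of log2 CPM over miRNAs, was 0.382 in the crushed Thap1+/- group and 0.274 in the crushed wild-type group, beside 0.206 and 0.258 in uninjured Thap1+/- and wild-type mice.

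In crushed cerebellum, 4 miRNAs were lower and 2 were higher in Thap1+/- than in wild-type mice. The lower ones were the let-7 passenger strand let-7a-1-3p/7c-2-3p, miR-30c-5p, miR-6540-3p and miR-340-5p, and the higher ones were miR-770-3p and miR-485-5p. In each of the 6 the values of the 2 genotypes did not overlap, as in 17 of the 498 miRNAs tested (3.41%). This was read from the same 12 libraries as the calls and adds no separate evidence. The changes lay between 0.43 and 0.96 on the log2 scale. The test was edgeR's quasi-likelihood F test with Benjamini-Hochberg adjustment over the 498 miRNAs that passed the filter on low counts, so the 6 calls are 1.2% of those tested, with 0.402% higher and 0.803% lower. At an unadjusted p under 0.05 there were 119 (23.9%), 60 higher (12%) and 59 lower (11.8%). Over all 498 the median log2 fold change was 0.03. Without libraries 47 and 86, or without 46, 47 and 86, no miRNA passed by edgeR, with 52 and 59 at an unadjusted p under 0.05, and all 6 kept their sign in both cases. Without any 1 wild-type library the count was also no more than 2. Neither higher call passed with no filter on low counts, with let-7 and miR-98 left out, on raw library totals, or without any 1 library other than Thap1+/- 117 or 133.

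Among the 6 called miRNAs the largest change was in let-7a-1-3p/7c-2-3p, a passenger strand. Its level ran from 4.21 to 8.18 CPM with a median of 5.30 in Thap1+/- libraries, and from 10.1 to 13.0 with a median of 10.6 in wild-type libraries. Every Thap1+/- library was below every wild-type one. It fell by 0.96 ± 0.16 (SE, n = 6 per group) on the log2 scale, with an adjusted p of 0.0170 by edgeR. Its precursors are encoded on chromosome 13 (chr13:48538179-48538272, minus strand, in an exon of the lincRNA 6720427I07Rik) and chromosome 15 (chr15:85706603-85706697, plus strand, in an exon of Lncppara), in GENCODE's annotation of GRCm38. The same precursors give the abundant guides let-7a-5p and let-7c-5p, which did not pass the test and had positive log2 fold changes of 0.46 and 0.48.

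miR-30c-5p belongs to the miR-30 family, which is broadly expressed and is known for restraining neuronal and fibrotic gene programmes. Its level ran from 186 to 280 CPM with a median of 222 in Thap1+/- libraries, against 308 to 427 with a median of 360 in wild-type libraries. All 6 Thap1+/- libraries lay below the lowest wild-type library. It fell by 0.68 ± 0.13 (SE), with an adjusted p of 0.0288 by edgeR. One precursor lies in an intron of Nfyc, a subunit of the CCAAT-binding factor NF-Y (chr4:120769534-120769622, minus strand), and the other in an exon of the lincRNA Gm27028 (chr1:23291701-23291784, plus strand). The opposite strands of these precursors did not pass: miR-30c-1-3p had a log2 fold change of 0.12 ± 0.14 (SE) and miR-30c-2-3p one of 0.23 ± 0.15 (SE).

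miR-340-5p, encoded in an intron of the ubiquitin ligase gene Rnf130 (chr11:50069702-50069799, plus strand), ran from 573 to 727 CPM with a median of 662 in Thap1+/- libraries. In wild-type libraries it ran from 795 to 985 with a median of 851. The gap between the highest Thap1+/- and the lowest wild-type library was small beside the levels, but the groups did not overlap. It fell by 0.43 ± 0.10 (SE), with an adjusted p of 0.0446 by edgeR.

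miR-6540-3p was scarce and was chosen after its values were seen, since the rule for naming asked for a mean of at least 10 CPM. Its precursor lies in an intron of Gap43, the gene of a growth-cone protein of regenerating axons (chr16:42303362-42303469, minus strand). It ran from 1.27 to 2.41 CPM with a median of 1.67 in Thap1+/- libraries and from 2.95 to 3.91 with a median of 3.12 in wild-type libraries. It fell by 0.87 ± 0.18 (SE), with an adjusted p of 0.0322 by edgeR, while the strand from the other arm, miR-6540-5p, had a log2 fold change of 0.72 ± 0.28 (SE) and did not pass (adjusted p = 0.157, edgeR).

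miR-770-3p and miR-485-5p are encoded in the imprinted Dlk1-Dio3 region on chromosome 12, whose miRNAs are transcribed from the maternal copy together with the lincRNA Meg3 and are abundant in brain. miR-770-3p, in an exon of Meg3 (chr12:109563692-109563785, plus strand), ran from 48.2 to 75.2 CPM with a median of 58.9 in Thap1+/- libraries and from 33.1 to 43.0 with a median of 37.2 in wild-type libraries. It rose by 0.69 ± 0.15 (SE) on the log2 scale (adjusted p = 0.0428, edgeR). Libraries 46, 47 and 86 had the 3 highest values, and without them the log2 fold change was 0.37 ± 0.12 (SE). Its partner strand miR-770-5p had a log2 fold change of 0.25 ± 0.14 (SE) and did not pass.

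miR-485-5p, known for acting on synaptic genes in neurons, ran from 83.1 to 127 CPM with a median of 114 in Thap1+/- libraries. In wild-type libraries it ran from 54.2 to 82.5 with a median of 68.4. It rose by 0.68 ± 0.15 (SE) on the log2 scale (adjusted p = 0.0446, edgeR), and its 3 highest values were again those of libraries 46, 47 and 86. Without these the log2 fold change was 0.38 ± 0.15 (SE). Its partner strand miR-485-3p, at a mean of 2.22 CPM, had a log2 fold change of -0.25 ± 0.35 (SE) and did not pass. Of the 65 tested miRNAs matched to the Dlk1-Dio3 region, 29 had positive and 36 negative log2 fold changes, with 1 called higher (miR-770-3p), and their median was -0.03; miR-485-5p was not among the matched ones.

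**Figure D1:**
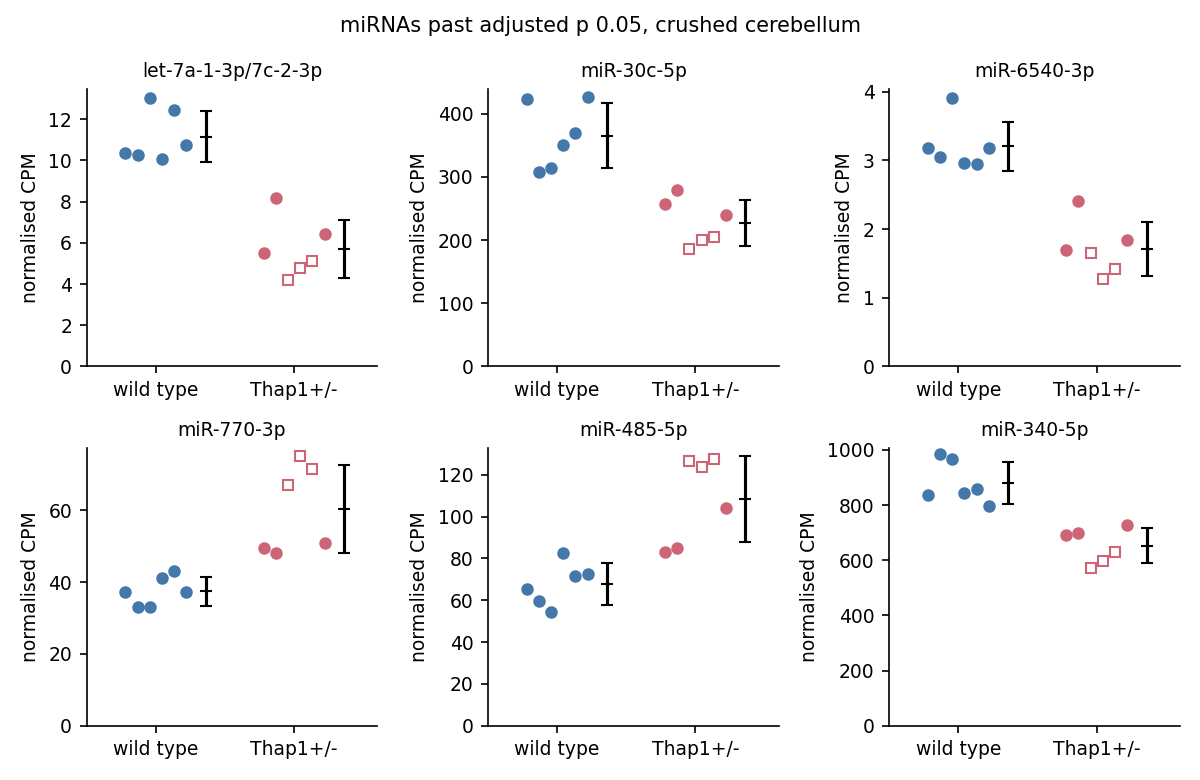
Normalised CPM (vertical axes, from 0) of the 6 miRNAs past an adjusted p of 0.05, 1 point per crushed cerebellum library, wild type in blue and Thap1+/- in red; open squares are libraries 46, 47 and 86 and bars are mean ± SD. The genotypes do not overlap in any panel, and the open squares have the highest Thap1+/- values of miR-770-3p and miR-485-5p.

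The groups did not overlap in 17 of the 498 miRNAs tested (3.41%), 13 lower (2.61%) and 4 higher (0.803%) in Thap1+/-. These include the 6 calls and 11 others, 9 lower and 2 higher. The miRNAs in this paragraph other than miR-29a-3p, miR-9-5p and miR-126a-3p were chosen after their values were seen. Both arms of miR-9, a regulator of neural progenitors and neuronal differentiation, were among the 11. miR-9-5p ran from 18060 to 24280 CPM in Thap1+/- libraries and from 24740 to 33920 in wild-type libraries, a log2 fold change of -0.42 ± 0.12 (SE), and miR-9-3p had one of -0.41 ± 0.11 (SE). The neuron-enriched miR-218-5p (-0.39 ± 0.10, SE), miR-376a-3p (-0.43 ± 0.12, SE), the endothelial miR-126a-5p (-0.39 ± 0.10, SE) and miR-29a-3p (-0.43 ± 0.11, SE) stood in the same position. All 6 had an adjusted p of 0.0695 by edgeR and did not pass. Where the filter asked for a mean of at least 10 CPM, miR-9-3p, miR-218-5p and miR-126a-5p passed. The other arm of the miR-126a precursor, miR-126a-3p, had a log2 fold change of 0.05 ± 0.12 (SE). Of the 8 tested miRNAs of the vessel list, 5 were negative and 3 positive. Of the 14 tested of the neuron-enriched list, 11 were negative and 3 positive, the latter with the abundant miR-124-3p (0.34 ± 0.32, SE). On the higher side, miR-342-5p had a log2 fold change of 0.71 ± 0.20 (SE) and miR-3093-3p one of 0.50 ± 0.14 (SE), with the same adjusted p.

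let-7 miRNAs repress cell-cycle and growth genes and are kept at high levels in mature neurons. With miR-98, and both arms counted, they made up 61.2 to 75.7% of counts with a median of 67.1%, against 57.3 to 64.7% with a median of 61.0% in crushed wild-type libraries. The groups overlapped, since library 46 had the lowest Thap1+/- share, and libraries 47 and 86 had the highest, 75.7 and 74.2%. The means were 68.5 ± 5.49% and 61.2 ± 3.08% (SD, n = 6 each), a difference of 7.28 percentage points that was 4.05 without libraries 47 and 86. In uninjured cerebellum the shares were 61.5 ± 2.07% in Thap1+/- and 58.4 ± 2.25% in wild-type mice (SD, n = 6 each).

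**Figure D2:**
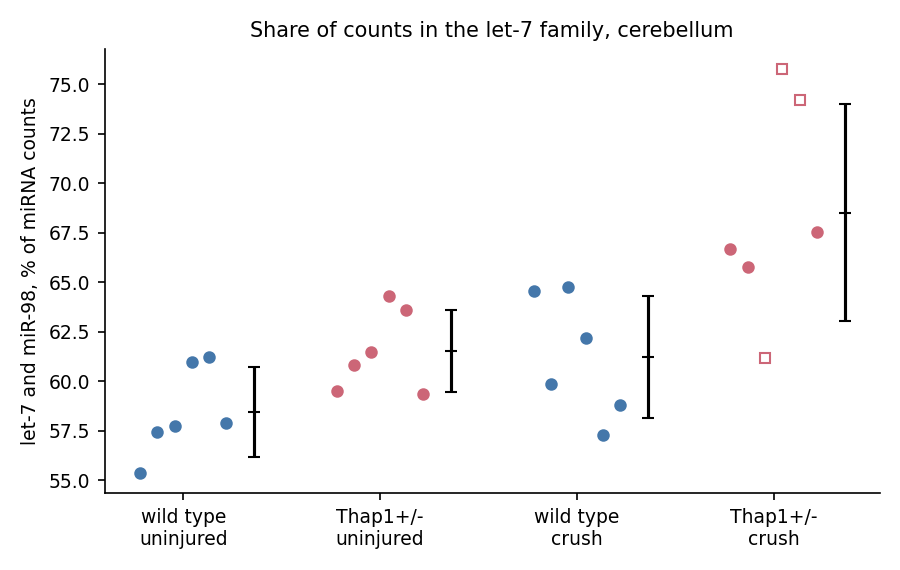
Percent of all miRNA counts that fell in let-7 and miR-98 (vertical axis, not from 0), 1 point per cerebellum library in 4 groups of 6, with mean ± SD; open squares are libraries 46, 47 and 86. The crushed Thap1+/- libraries span 61.2 to 75.7%, the widest range of the 4 groups.

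Member by member, all 9 tested let-7 and miR-98 guides had positive log2 fold changes, from 0.21 in let-7g-5p to 0.56 in miR-98-5p, with a median of 0.42 beside 0.03 over all miRNAs tested. None passed, and 6 had an unadjusted p under 0.05, beside 12% of all miRNAs tested that were higher at that threshold. let-7b-5p ran from 69490 to 116200 CPM in Thap1+/- libraries and from 51090 to 73080 in wild-type libraries, with a log2 fold change of 0.51 ± 0.16 (SE, adjusted p = 0.106, edgeR). The family's median was 0.14 without libraries 47 and 86 and 0.08 without 46, 47 and 86. The 5 tested passenger strands all had negative log2 fold changes, with a median of -0.47. Besides the called one, let-7i-3p had -0.71 ± 0.23 (SE, adjusted p = 0.106, edgeR) and let-7d-3p -0.47 ± 0.22 (SE). Their median without libraries 46, 47 and 86 was -0.33. On raw library totals in place of TMM-scaled ones, let-7g-5p changed sign, to -0.01.

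In the miR-30 family with miR-384-5p all 6 tested members had negative log2 fold changes, from -0.68 to -0.31, with a median of -0.42. miR-30c-5p was called, and all 6 had an unadjusted p under 0.05, beside 11.8% of all miRNAs tested that were lower at that threshold. miR-30b-5p came next, with 131 to 270 CPM in Thap1+/- and 263 to 367 in wild-type libraries and a log2 fold change of -0.67 ± 0.18 (SE, adjusted p = 0.0695, edgeR). The more abundant miR-30a-5p, at 4832 to 7489 against 7199 to 9138 CPM, had -0.42 ± 0.12 (SE), and miR-30e-5p, from the same Nfyc intron as miR-30c-1, had -0.42 ± 0.12 (SE). The family's median was -0.44 without libraries 47 and 86 and -0.48 without 46, 47 and 86, as large as with them. In a fit of all 24 cerebellum libraries, where 74 of 552 miRNAs (13.4%) were called for the same contrast and 50 (9.06%) were lower, all 6 members were called lower. The same fit called 2 of 9 let-7 and miR-98 guides higher. It called lower 2 of 5 let-7 passenger strands, 2 of 3 miR-29 members and 5 of 14 neuron-enriched miRNAs. Also called lower were 3 of 5 epithelial miRNAs, which were high in wild-type library 3, as described below.

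The miR-29 family, which represses collagens and other matrix genes and is enriched in mature astrocytes and neurons, had 3 tested members and no call. The log2 fold change was -0.43 for miR-29a-3p, -0.44 for miR-29c-3p and -0.34 for miR-29b-3p. Of 14 tested neuron-enriched miRNAs, 11 were negative and 3 positive, none was called and 5 had an unadjusted p under 0.05, all of them lower, beside 11.8% of all miRNAs tested that were lower at that threshold, with a median of -0.34. The negative ones include miR-7a-5p (-0.82) and miR-7b-5p (-0.71), which were high in wild-type library 3, as described below. With all 24 cerebellum libraries scaled together, their medians were 2958 and 931 CPM in crushed Thap1+/- and 2912 and 923 in crushed wild-type libraries. Summed neuron-enriched levels overlapped, at 68960 to 115200 CPM in Thap1+/- and 77460 to 100100 in wild-type libraries. The 4 members of the miR-181 family were positive, with a median of 0.28 and none called, and this turned to -0.24 without libraries 46, 47 and 86: library 46 had 4927 CPM of miR-181a-5p, the highest of the 12 libraries. The 3 tested miRNAs of the Hox clusters, which mark posterior nervous tissue, were positive, with a median of 0.72. miR-10a-5p ran from 237 to 381 CPM in Thap1+/- and from 62.4 to 250 in wild-type libraries, with a log2 fold change of 0.78 ± 0.27 (SE, adjusted p = 0.115, edgeR). The Hox median was 0.15 without libraries 46, 47 and 86.

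**Figure D3:**
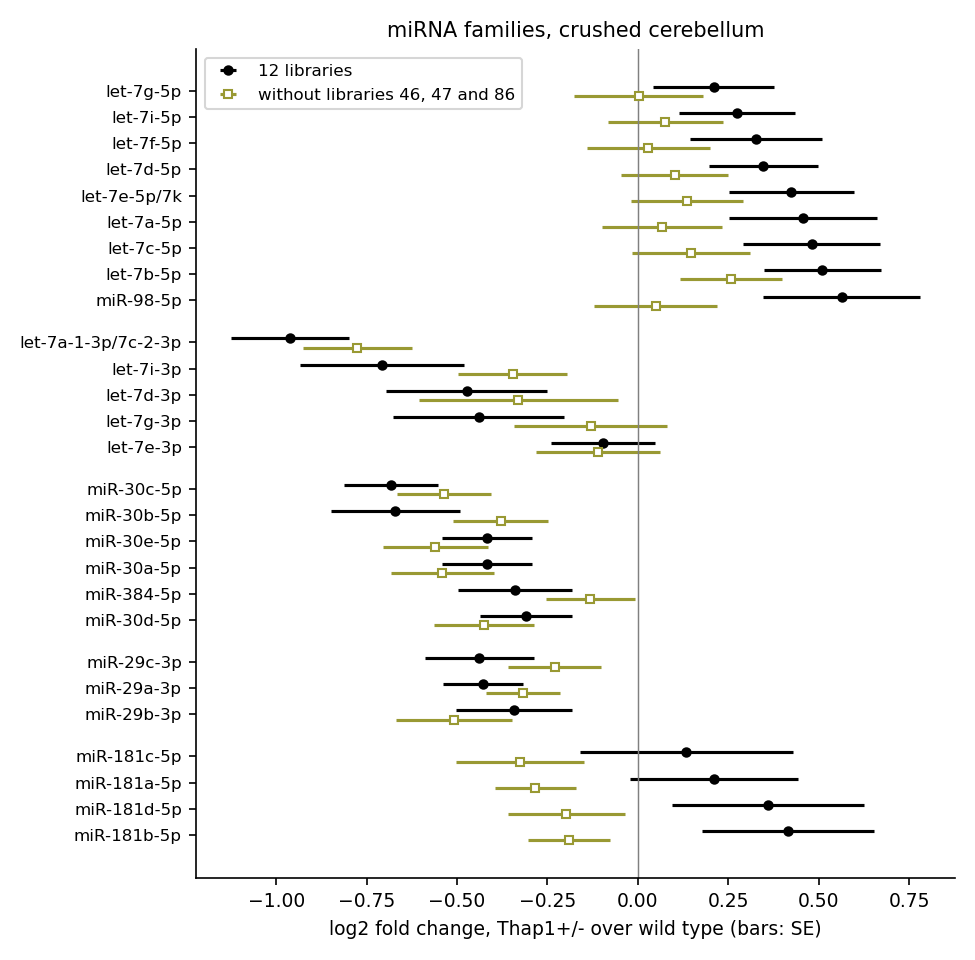
Log2 fold change of Thap1+/- over wild type in crushed cerebellum (horizontal axis, bars are SE) for the tested members of let-7 with miR-98, the let-7 passenger strands, miR-30 with miR-384, miR-29 and miR-181; filled circles use 12 libraries and open squares leave out libraries 46, 47 and 86. The miR-30 members stay negative in both, and the miR-181 members change sign.

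Lists of markers of other cell types moved as follows. The listed miRNAs of oligodendrocytes (9 tested, median -0.08), astrocytes (9, median 0.03), microglia and inflammation (10, median -0.12), vessels (8, median -0.11), choroid plexus and ependyma (8, median 0.08) and muscle (4, median -0.08) had no member called. The lists share members, and they hold miRNAs that are not restricted to the cells named. miR-144-3p is also in the red cell list, miR-143-3p in those of astrocytes and vessels, and miR-150-5p in those of microglia and vessels. miR-449a-5p is in those of astrocytes and of choroid plexus and ependyma. miR-200a-3p (-2.31) and miR-429-3p (-2.03) of the choroid plexus and ependyma list are also epithelial ones, high in wild-type library 3 as described below. Their summed levels overlapped between the genotypes in each of these lists. The Thap1+/- and wild-type ranges were 2612 to 4393 and 3207 to 4114 CPM for oligodendrocytes, 52140 to 103500 and 62430 to 81140 for astrocytes, and 2496 to 4674 and 3020 to 5178 for microglia and inflammation. They were 21200 to 27930 and 20840 to 26980 CPM for vessels, 949.7 to 1721 and 750.2 to 1565 for choroid plexus and ependyma, and 3913 to 6631 and 3559 to 4432 for muscle. miR-451a, the main red cell miRNA, was too scarce to test, at 20 counts at most, and miR-144-5p had 0 counts in all 12. The 2 tested members of the red cell list, miR-144-3p and miR-486a-5p/486b-5p, had log2 fold changes of 0.38 ± 0.81 and 0.30 ± 0.20 (SE) and were not called. The part of cell content in the genotype effect was not tested.

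The epithelial list behaved differently, through 1 library. All 5 tested members, miR-375-3p, miR-141-3p, miR-200a-3p, miR-200c-3p and miR-429-3p, had negative log2 fold changes from -3.40 to -2.03, an unadjusted p under 0.05 and no call. In wild-type library 3 they lay between 81.8 and 1348 CPM, and their sum was 2258 CPM against 20.7 to 83.0 in the other 11 libraries. Without it the log2 fold changes were 0.12 to 0.34, and miR-375-3p had 0.22. Library 3 also had the highest levels of miR-7a-5p, 15170 CPM, and miR-7b-5p, 5211 CPM, among the 12; both are known from endocrine tissue as well as neurons. Without library 3 the count of calls was 1.

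**Figure D4:**
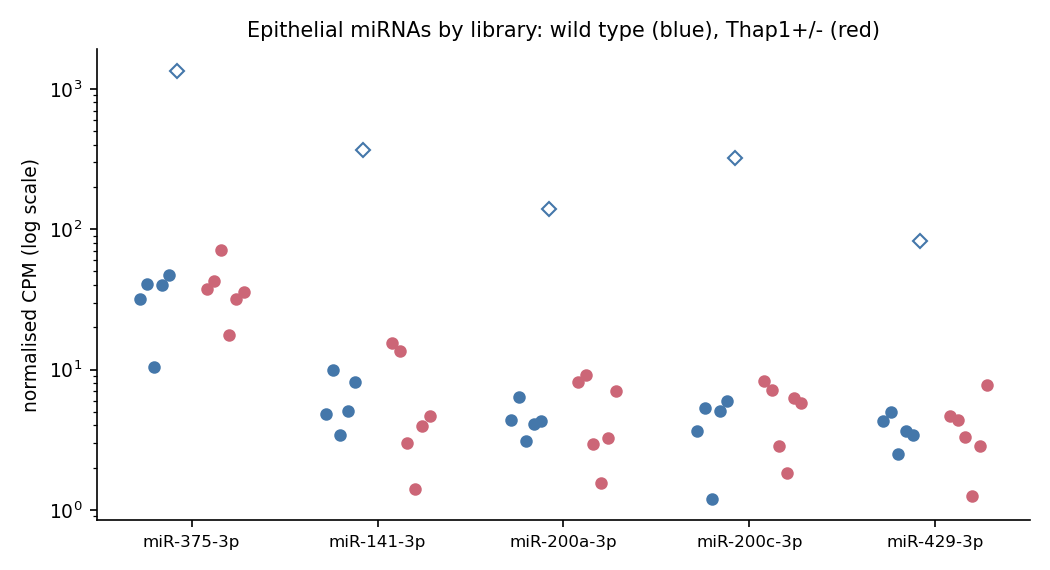
Normalised CPM (log axis) of 5 epithelial miRNAs, 1 point per crushed cerebellum library, wild type in blue and Thap1+/- in red; the open diamond is wild-type library 3. The diamond lies at 81.8 to 1348 CPM, above the other 11 libraries in every case.

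Among features that the test did not use, the base composition of the mature miRNA went with the log2 fold change. Over the 425 tested miRNAs with a RefSeq sequence, the Spearman correlation of log2 fold change with GC content was 0.27, a description across miRNAs that share the 12 libraries. The median log2 fold change was -0.11, 0.02 and 0.14 in 3 bins of low, middle and high GC content. Without libraries 46, 47 and 86 the correlation was 0.21, and in uninjured cerebellum, whose libraries are separate, it was 0.40. It was -0.11 in crushed cortex and -0.35 in crushed striatum. The part of base composition in the calls was not tested. miRNAs of the 5p arm had a median of 0.12 (277 tested) and those of the 3p arm -0.07 (209 tested). Without libraries 46, 47 and 86 these medians were 0.01 and -0.08, and in uninjured cerebellum they were 0.01 and -0.03.

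Set beside uninjured mice, the 6 called miRNAs had log2 fold changes of the same sign and nearer 0 without crush. They were chosen by their effects after crush, so values nearer 0 elsewhere do not by themselves show a difference with injury. In uninjured cerebellum 5 of 517 miRNAs (0.967%) were called, 4 lower (0.774%) and 1 higher (0.193%), none of them among the 6. The inflammatory-cell miRNA miR-142a-3p (-0.63 ± 0.12, SE), the neuronal miR-384-3p (-0.37 ± 0.07) and miR-384-5p (-0.27 ± 0.06), and miR-15a-5p (-0.44 ± 0.10), of a cell-cycle family, were lower, and miR-92b-5p (0.57 ± 0.12) was higher, each with an adjusted p of 0.0432 by edgeR. The count was 0 without Thap1+/- library 135, 48, 63 or 76 or wild-type library 118, 124, 136 or 96, 1 without wild-type library 31 and 34 without wild-type library 67. With all 24 cerebellum libraries scaled together, miR-30c-5p ran from 401 to 439 CPM in uninjured wild-type, 370 to 404 in uninjured Thap1+/-, 336 to 458 in crushed wild-type and 201 to 294 in crushed Thap1+/- libraries. The crushed Thap1+/- libraries alone lay below the other 18. For let-7a-1-3p/7c-2-3p the uninjured ranges were 9.66 to 15.5 CPM in wild-type and 6.81 to 12.3 in Thap1+/- libraries, and the uninjured log2 fold change was -0.60 ± 0.16 (SE, adjusted p = 0.0954, edgeR).

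Whether the genotype effect differed with injury was tested directly over the 24 cerebellum libraries. None of 552 miRNAs passed (0%) by edgeR and 1 by DESeq2 (miR-30c-5p), and 57 (10.3%) had an unadjusted p under 0.05 by edgeR. By edgeR the count was 1 without crushed Thap1+/- library 133 and without crushed wild-type library 11, each time miR-30c-5p. It was also 1 without crushed Thap1+/- library 8 (miR-325-5p). miR-30c-5p came closest, with a genotype effect lower by 0.58 ± 0.13 (SE, adjusted p = 0.0726, edgeR) after crush on the log2 scale. miR-6540-3p had a difference of -0.71 ± 0.18 (SE, adjusted p = 0.211, edgeR), and let-7a-1-3p/7c-2-3p one of -0.41 ± 0.22 (SE, adjusted p = 0.573, edgeR). By edgeR on all 24 libraries the uninjured and crushed effects are therefore not shown to differ for any of the 6. For miR-30c-5p this depended on the method and on single libraries.

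Against the other regions of crushed mice, the genotype effect on 2 miRNAs was lower in cerebellum than in striatum, out of 583 tested (0.343%). They were let-7a-1-3p/7c-2-3p, with a difference of -1.26 ± 0.25 (SE, adjusted p = 0.0222, edgeR), and miR-6540-3p, with -1.04 ± 0.22 (SE, adjusted p = 0.0289, edgeR). Their own log2 fold changes in crushed striatum were 0.29 ± 0.17 and 0.15 ± 0.13 (SE). Neither held a mean of 10 CPM in crushed cerebellum, and no call remained where the filter asked for that mean. Without cerebellar libraries 47 and 86 neither of the 2 passed. The count was also 0 without striatal Thap1+/- library 47 or striatal wild-type library 113, 11 or 139. It was 1 without cerebellar Thap1+/- library 117, cerebellar wild-type library 113 or 3, or striatal Thap1+/- library 117. The regions share column numbers, which the labels do not tie to mice. With a replicate block on these numbers 1 call remained, let-7a-1-3p/7c-2-3p, and miR-6540-3p was lost. Against crushed cortex none of 550 passed (0%) by edgeR, and none by DESeq2, and 78 (14.2%) had an unadjusted p under 0.05; by edgeR 2 passed without wild-type cortex library 139. There miR-30c-5p had a log2 fold change of -0.31 ± 0.10 (SE) and let-7a-1-3p/7c-2-3p one of -0.38 ± 0.12 (SE), neither called. RNA was extracted with another kit in cortex and striatum than in cerebellum, in both genotypes alike.

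The number of calls in crushed cerebellum moved with nearly any library left out. It was 10 without library 117 and 19 without library 133 of the Thap1+/- group, 1 without 46 or 8, and 0 without 47 or 86. Of the wild-type group it was 0 without 2, 2 without 11 or 139, and 1 without 113, 14 or 3. Libraries 117 and 133 were the most alike pair of their group, whose counts differed by a chi-square of 10.9 per degree of freedom. The next pair of that group, 47 and 86, had 41.4, and the lowest wild-type pair, 113 and 139, had 91.2. Library 46 was unlike both 47 and 86, with 1439 and 1269. The 10.9 is above sampling noise, but it cannot show whether the 2 libraries came from separate RNA. Both were kept. The authors' deposited table for the same contrast, made with DESeq2, gave 80 of 483 miRNAs an adjusted p under 0.05, 37 higher and 43 lower, and all 6 were among them.

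**Figure D5:**
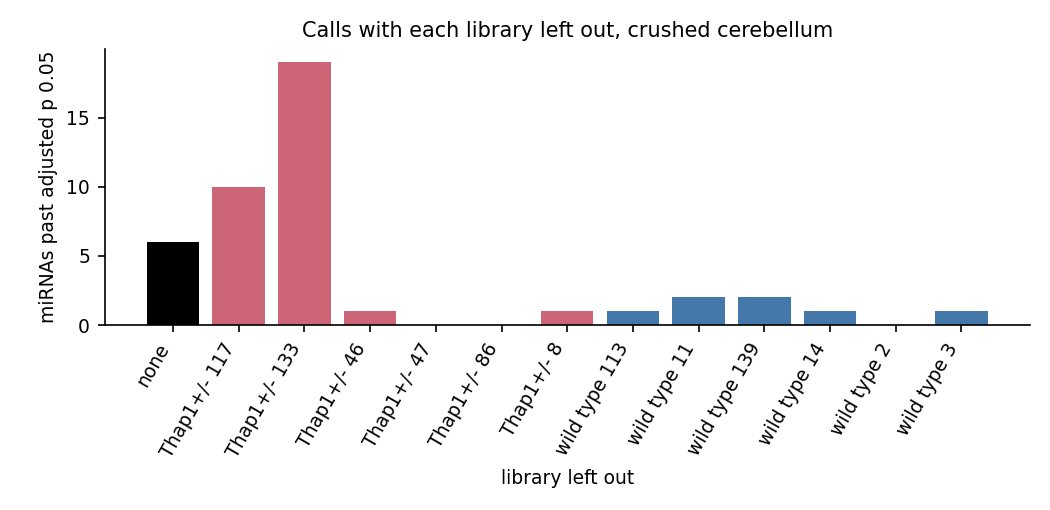
Number of miRNAs past an adjusted p of 0.05 by edgeR (vertical axis, from 0) in crushed cerebellum with all 12 libraries (black) and with each library left out, Thap1+/- in red and wild type in blue. The count is 6 with all libraries and runs from 0 to 19 with 1 left out.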

How the data were processed

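Mature miRNA counts from QIAseq miRNA libraries made with 10 ng of RNA (per the labels' protocols, after a miRNeasy mini kit in cerebellum and a micro kit elsewhere) were used as deposited. The submitters' processing notes name featureCounts 1.6.4 and R 4.1.0. Not given in the sources used here are the aligner, annotation, build and any collapsing of molecular identifiers. The authors' deposited table, which the file headers tie to DESeq2, gave log2 fold changes and adjusted p-values that served only to compare calls. A further 284 per-sample columns were not used. Columns were assigned by group, and their numbers could not be matched to single titles.

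Counts were tested with edgeR 4.0.16 (limma 3.58.1, R 4.3.3): TMM scaling, filterByExpr, the quasi-likelihood F test and Benjamini-Hochberg adjustment, calls at 0.05, on the libraries of each comparison alone. The procedure was tested on simulated data. P-values measure the spread between these libraries, and floors cover counting error only. Named miRNAs were the calls with a mean of at least 10 CPM, let-7 guides, the 10 most abundant, the most abundant and the called members of 23 lists, and seed relatives of calls; others are said to be chosen after their values were seen, as are let-7i-3p, miR-30b-5p, miR-30d-5p, miR-29b-3p, miR-29c-3p, miR-337-3p, partner strands, miR-7, and the epithelial miRNAs other than miR-375-3p. Members and lists were chosen with earlier results of these data known. Alternatives were RLE scaling, other filters, leaving out let-7 and miR-98, DESeq2 1.42.0, robust shrinkage, a 24-library fit, raw totals and left-out libraries; those without libraries 46, 47 and 86, without 47 and 86, and on raw totals were chosen after seeing the data.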

Additional observations from a re-analysis of the deposited data

Results flagged for a closer look

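In 72 groups of 6 crushed cerebellum libraries checked, over the named miRNAs and the let-7 share, 5 held a library far from the others; chance alone gives this in about 5% of groups. In the Thap1+/- group library 46 was the high one for miR-26a-5p (82870 CPM), miR-181a-5p (4927 CPM) and miR-34c-5p (1124 CPM). In the wild-type group library 3 was high for miR-375-3p (1348 CPM) and library 139 for miR-6540-3p (3.91 CPM). The genotype effect differed between crushed cerebellum and crushed striatum by a direct test for let-7a-1-3p/7c-2-3p, by -1.26 on the log2 scale, and for miR-6540-3p, by -1.04.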

How the results depend on the processing

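The 6 calls in crushed cerebellum were 6 with RLE size factors, 7 with a mean of at least 10 CPM and 5 with robust shrinkage, but 2 with no filter on low counts, 2 without let-7 and miR-98 and 3 on raw library totals (all of these lower), 40 with DESeq2, 74 with all 24 cerebellum libraries, 0 without libraries 47 and 86, 0 without 46, 47 and 86, and 0 to 19 with 1 library left out. The calls were not always the same miRNAs. The 7 held 4 of the 6, without let-7a-1-3p/7c-2-3p and miR-6540-3p, and added miR-126a-5p, miR-218-5p and miR-9-3p. The 3 on raw totals held 1 of the 6, let-7a-1-3p/7c-2-3p, and added miR-30a-5p and miR-30e-5p. The 5 with robust shrinkage lacked miR-340-5p. The 5 uninjured calls were 0 with no filter, 0 without let-7 and miR-98, 28 with DESeq2, 0 with all 24 libraries and 0 to 34 with 1 left out. The difference with injury had 1 call with DESeq2 and 0 to 1 with 1 library left out. Against cortex the range was 0 to 2. Against striatum the 2 calls were 1 with no filter, 0 with a mean of at least 10 CPM, 0 without let-7 and miR-98, 10 with DESeq2, 1 without libraries 47 and 86 (miR-494-5p, higher, and neither of the 2) and 0 to 3 with 1 left out. The let-7 share difference ran from 5.83 to 8.75 points with 1 library left out. The share is of raw counts and takes no scaling, and CPM levels on totals without let-7 and miR-98 were not run. The causes were not tested.

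Signs changed for miRNAs that were not called. Without libraries 47 and 86 the log2 fold change was -0.00502 for let-7g-5p, -0.0615 for miR-182-5p, -0.106 for miR-126a-3p and -0.151 for miR-16-5p. Without 46, 47 and 86 it was -0.284 for miR-181a-5p, 0.150 for miR-125b-5p, 0.0612 for miR-338-3p, -0.0948 for miR-182-5p, -0.105 for miR-126a-3p, -0.395 for miR-26a-5p and -0.159 for miR-16-5p. On raw totals it was -0.00556 for let-7g-5p, -0.0878 for miR-93-5p, -0.0137 for miR-181a-5p, -0.185 for miR-182-5p, -0.175 for miR-126a-3p, -0.154 for miR-26a-5p and -0.190 for miR-16-5p. With 1 library left out it ran from -0.120 to 0.308 for miR-181a-5p, -0.196 to 0.168 for miR-26a-5p, -0.0469 to 0.0954 for miR-16-5p, -0.00765 to 0.0836 for miR-126a-3p, -0.0701 to 0.210 for miR-182-5p and -2.97 to 0.217 for miR-375-3p.

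No paired analysis was possible because, within the cerebellum, the groups share no library numbers. Between regions the numbers are shared, and same-numbered libraries deviated together (correlation over 0.1) in 5 of 12 pairs with cortex and 4 of 12 with striatum. The same-numbered library was the best correlated of its group in 5 of 12 cases with cortex and 3 of 12 with striatum. Whether a number marks 1 mouse cannot be told from these values. A replicate block on the numbers left 1 call against striatum (let-7a-1-3p/7c-2-3p, not miR-6540-3p) and 0 against cortex.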
